A study of Mus musculus with 3 samples.

Results

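Toll-like receptors are membrane proteins with which macrophages recognise microbial molecules. The 10 genes described here are Tlr1, Tlr2, Tlr3, Tlr5, Tlr6, Tlr7, Tlr8, Tlr9 and Tlr13, which encode Toll-like receptors other than Tlr4, and Unc93b1, which encodes the transport chaperone of several of them. They were taken by name from the 55536 Ensembl genes of the gene tables, and each was found under 1 symbol. Each receptor has an ectodomain of leucine-rich repeats that binds the ligand and a cytosolic TIR domain that recruits the adaptors MYD88 or TRIF. The proteins encoded by Tlr1, Tlr2, Tlr5 and Tlr6 sense lipoproteins and flagellin at the cell surface, whereas those encoded by Tlr3, Tlr7, Tlr8, Tlr9 and Tlr13 sense nucleic acids in endosomes after proteolytic processing. UNC93B1 escorts the nucleic acid receptors out of the endoplasmic reticulum, and without it they do not signal.

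Total RNA of the cytosolic fraction was sequenced from primary bone marrow-derived macrophages of C57BL/6J mice, collected 10 minutes after the addition of 100 ng/ml Lipid A, the part of bacterial lipopolysaccharide that engages TLR4. There was 1 group of 3 libraries, numbered as biological replicates 1, 2 and 3, with ribosomal RNA depleted and 1 µg of RNA as input. All 3 carried the same donor identifier, sex and age were recorded as not collected, and no label stated that the replicates were separate animals or separate cultures, so tests over libraries measured only the spread between these samples. No untreated library was analysed here. The values are thus levels in the cytosolic fraction of stimulated cells and say nothing of a response to Lipid A.

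Counts assigned to Ensembl genes totalled 33825547, 54667365 and 43176007 in replicates 1, 2 and 3. Levels are given as TPM, the authors' measure of abundance per length of transcript, whose sum over all genes is the same in every library. Protein-coding genes held 24.1% to 26.3% of that sum. All 10 macrophage markers examined, among them Csf1r, Adgre1 and Cd68, reached 1 TPM in every library, with a summed level of 6524 to 7619 TPM. None of the 4 B cell, 4 plasmacytoid dendritic cell, 4 conventional dendritic cell or 4 T and NK cell markers reached 1 TPM in every library, and no summed level of these lists exceeded 0.95 TPM. Of 6 neutrophil markers, S100a8, S100a9 and Ngp reached it, Ly6g was listed at 0 in all 3 libraries, and the summed level ran from 23.6 TPM in replicate 1 to 37.9 TPM in replicate 2. In bulk RNA, fewer cells of a type and less RNA per cell cannot be told apart.

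On deposited TPM, 9 of the 10 genes reached 1 TPM in every library, the exception being Tlr5. The same held for 17.3% of all Ensembl genes and 41.6% of the 22028 protein-coding genes. The median over the 10 genes of the mean level was 16.3 TPM. Their means ran from 0.817 TPM for Tlr5 to 176 TPM for Unc93b1, and the nucleic acid receptors encoded on the X chromosome lay above every surface receptor.

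**Figure D1:**
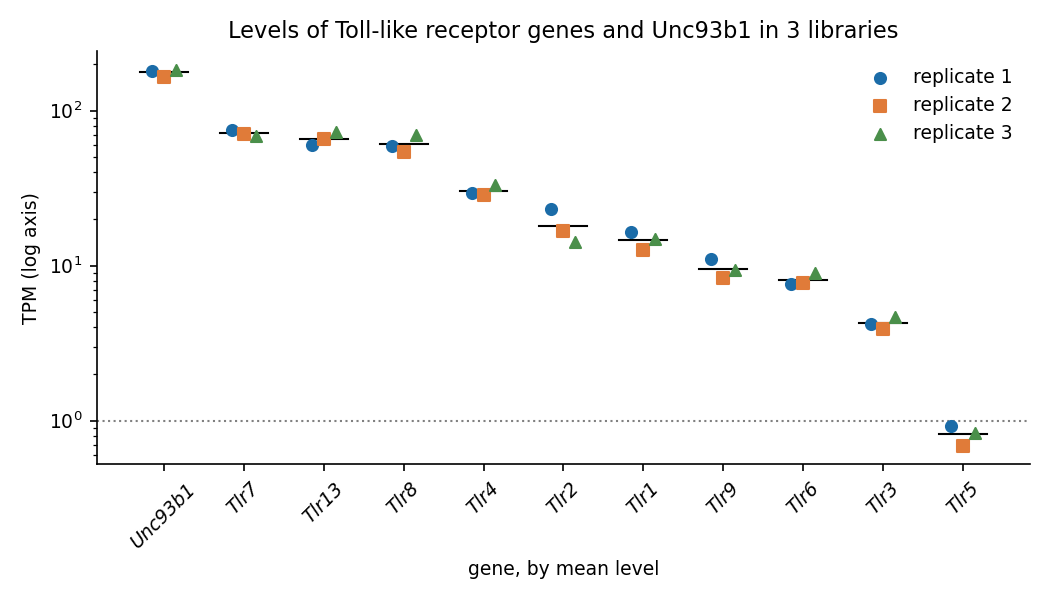
TPM on a log axis of each gene in replicates 1, 2 and 3 (symbols), with the mean as a bar and Tlr4 for reference; the dotted line marks 1 TPM. Unc93b1 lies highest in every library (164 to 184 TPM), Tlr7, Tlr13 and Tlr8 form a group between 54.1 and 75.1 TPM above Tlr4, and Tlr5 is the gene under 1 TPM.

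Unc93b1 (ENSMUSG00000036908.17, mm10 chr19:3935186-3949340, plus strand) measured 180.57, 163.98 and 184.04 TPM in replicates 1, 2 and 3, or 176 ± 10.7 TPM (SD, n = 3). It was highest of the 10 genes in every library, and its mean exceeded that of 99.2% of protein-coding genes. The counts behind it, 22335, 31081 and 25637, were the largest of the 10, and the exact 95% Poisson interval of the first, 22043 to 22630, spanned 1.31% to either side. Such intervals cover counting error only. The chaperone's TPM was 0.828 ± 0.0278 times (SD, n = 3) the summed TPM of the 8 mouse receptor genes whose proteins it is known to escort, which are Tlr3, Tlr5, Tlr7, Tlr8, Tlr9, Tlr11, Tlr12 and Tlr13. Transcripts under 500 bases, described below, held 19.3% of the TPM of Tlr7 and 21.5% of that of Tlr8. They held 4.67% of that of Unc93b1, and the ratio was not computed without them. The 3 protein-coding genes with the most similar TPM to Unc93b1 across the libraries were Rps26, Rps7 and Rpl6, which encode ribosomal proteins. Their Euclidean distances over the 3 values of log2(TPM + 1) were 0.07, 0.10 and 0.10.

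Tlr7 (ENSMUSG00000044583.13, chrX:167304929-167330558, minus strand) encodes a receptor for single-stranded RNA and guanosine. It measured 75.06, 70.43 and 68.40 TPM in replicates 1, 2 and 3, which is 71.3 ± 3.41 TPM (SD, n = 3). Tlr13 (ENSMUSG00000033777.4, chrX:106143204-106160493, plus strand) encodes a receptor for a conserved stretch of bacterial ribosomal RNA, and is a gene that humans lack. Its levels were 59.57, 65.39 and 72.55 TPM, with a mean of 65.8 ± 6.50 TPM (SD, n = 3). Replicate 3 was the highest for Tlr13 and the lowest for Tlr7, and the ranges of both genes overlapped. Tlr8 (ENSMUSG00000040522.5, chrX:167242696-167264329, minus strand) is the neighbour of Tlr7 and encodes a related RNA receptor. It measured 59.23, 54.14 and 69.74 TPM, or 61.0 ± 7.96 TPM (SD, n = 3), with its highest value inside the range of the other two. The mean of each of these genes exceeded that of 97.3% to 97.7% of protein-coding genes.

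The remaining endosomal receptors were lower. Tlr9 (ENSMUSG00000045322.10, chr9:106222598-106226883, plus strand), whose product binds unmethylated CpG DNA, measured 10.96, 8.33 and 9.33 TPM, or 9.54 ± 1.33 TPM (SD, n = 3). Tlr3 (ENSMUSG00000031639.12, chr8:45395665-45411080, minus strand), whose product binds double-stranded RNA and signals through TRIF, measured 4.19, 3.89 and 4.65 TPM, or 4.24 ± 0.383 TPM (SD, n = 3). Every Tlr3 value lay below every Tlr9 value, and the lowest values of both genes were in replicate 2.

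Among the surface receptors, Tlr2 (ENSMUSG00000027995.10, chr3:83836272-83841767, minus strand) was the highest by mean. Its product pairs with TLR1 or TLR6 to bind triacylated or diacylated lipoproteins. It measured 23.02, 16.70 and 14.17 TPM, or 17.96 ± 4.56 TPM (SD, n = 3), with replicate 1 well above the others. Tlr1 (ENSMUSG00000044827.10, chr5:64924679-64933563, minus strand) measured 16.57, 12.69 and 14.86 TPM, or 14.7 ± 1.94 TPM (SD, n = 3). Tlr6 (ENSMUSG00000051498.6, chr5:64952031-64960097, minus strand) measured 7.66, 7.67 and 8.90 TPM, or 8.08 ± 0.713 TPM (SD, n = 3). The ranges of Tlr2 and Tlr1 overlapped, while every Tlr6 value lay below every value of Tlr1 and Tlr2. Tlr5 (ENSMUSG00000079164.8, chr1:182954788-182976044, plus strand) encodes the flagellin receptor and measured 0.93, 0.69 and 0.83 TPM, or 0.817 ± 0.121 TPM (SD, n = 3). These levels rested on 172, 200 and 163 counts, and the exact 95% Poisson interval of the first was 147 to 200.

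Tlr1 and Tlr6 lie next to each other on chromosome 5 and share coding sequence, which bears on how reads were divided between them. In a global alignment of the coding sequences, 79.7% of the aligned bases were identical. Over bases 1 to 795 of the Tlr1 coding sequence the identity was 68.1%, over bases 796 to 1590 it was 77.7%, and over bases 1591 to 2385, towards the transmembrane and TIR regions, it was 92.4%. The longest identical run was 229 bases, all of it coding, at chr5:64925537-64925765 in Tlr1 and chr5:64953828-64954056 in Tlr6. The longest run shared by the leading transcripts of any other 2 of the 9 receptor genes was 17 bases, between Tlr3 and Tlr7. The stretches below are the 150 bases before the run, in which capitals mark the only bases that differ, and then the first 150 bases of the run itself, in which none does. They are shown because a read that falls inside them cannot, or can hardly, be placed in 1 of the genes. All are mm10 (GENCODE M21 transcripts), 5′ to 3′ on the minus strand, with positions chr5:64925766-64925915 for Tlr1 and chr5:64954057-64954206 for Tlr6 before the run, and chr5:64925616-64925765 and chr5:64953907-64954056 within it.
Tlr1 before the run: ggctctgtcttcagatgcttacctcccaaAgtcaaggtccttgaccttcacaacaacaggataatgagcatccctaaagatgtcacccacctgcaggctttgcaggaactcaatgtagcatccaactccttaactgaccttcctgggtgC
Tlr6 before the run: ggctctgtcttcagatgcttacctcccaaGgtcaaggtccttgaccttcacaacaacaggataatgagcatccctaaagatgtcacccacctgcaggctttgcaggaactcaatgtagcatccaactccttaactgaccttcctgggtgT
Tlr1 and Tlr6 within the run: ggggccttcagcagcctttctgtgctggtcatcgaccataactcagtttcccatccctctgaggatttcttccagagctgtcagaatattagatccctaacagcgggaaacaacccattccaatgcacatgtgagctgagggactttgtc

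Of the 2753 windows of 31 bases in the leading Tlr1 transcript, 603 (21.9%) also occurred in transcripts of another gene, all in Tlr6. Of 3647 such windows in the leading Tlr6 transcript, 628 (17.2%) were shared, 619 of them with Tlr1. The shared windows of Tlr6 occurred in 2757 other genes in all, Tlr1 among them. With windows of 100 bases the shares were 9.65% for Tlr1 and 7.24% for Tlr6. The deposited posterior SD of the gene count was 3.98, 4.77 and 4.15 counts in replicates 1, 2 and 3, the same for Tlr1 as for Tlr6. Against their counts, 2713, 3206 and 2772 for Tlr1 and 1092, 1645 and 1363 for Tlr6, that uncertainty was small. The leading Tlr3 transcript shared 87 windows of 31 bases (1.99%) with Gm45542, an antisense gene that overlaps 381 exon bases of the Tlr3 gene over all its transcripts and had 0, 1 and 0 counts. The leading transcripts of the other 7 genes shared none.

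With each gene compared with its neighbour in the order of mean levels, on the log2(TPM + 1) scale and within each library, 5 of 9 neighbours differed in the same direction in all 3 libraries by more than 1 SD. This scale understates differences between low genes. The order came from these same values, so the direction of each mean difference was largely set in advance. It is therefore no support for the order. The 3 libraries allow no p below 0.25 in an exact permutation test that flips signs (two-sided), which these 5 pairs reached, as did Tlr13 and Tlr8, and Tlr9 and Tlr6, whose differences had 1 sign in all 3 libraries but lay within 1 SD. Unc93b1 exceeded Tlr7 by 1.29 ± 0.11 (SD, n = 3), Tlr8 exceeded Tlr2 by 1.73 ± 0.45, and Tlr1 exceeded Tlr9 by 0.58 ± 0.04. Tlr6 exceeded Tlr3 by 0.79 ± 0.05, and Tlr3 exceeded Tlr5 by 1.53 ± 0.10. Neighbours that were not separated beyond their spread were Tlr7 and Tlr13 (0.12 ± 0.21), Tlr13 and Tlr8 (0.11 ± 0.14), Tlr2 and Tlr1 (0.25 ± 0.28), and Tlr9 and Tlr6 (0.21 ± 0.22). By mean level over all transcripts, Unc93b1 was at the top, followed by the 3 X-linked receptors. Below them came Tlr2 with Tlr1, Tlr9 with Tlr6, Tlr3 and Tlr5, in that order. This grouping describes the means and was not tested. It was not fully kept without transcripts under 500 bases, a choice described below. Tlr9 then exceeded Tlr6 by 0.89 ± 0.18 and Tlr13 exceeded Tlr8 by 0.44 ± 0.13.

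Tlr4 (ENSMUSG00000039005.13, chr4:66827584-66930284, plus strand), the receptor engaged by Lipid A, measured 29.41, 28.65 and 33.21 TPM, or 30.4 ± 2.44 TPM (SD, n = 3). Unc93b1, Tlr7, Tlr13 and Tlr8 lay above it in all 3 libraries, by 2.50 ± 0.07, 1.20 ± 0.16, 1.09 ± 0.09 and 0.98 ± 0.08 on the log2(TPM + 1) scale (exact sign-flip permutation p = 0.25 each, the smallest possible). The other 6 genes lay below it in all 3 libraries, from -0.75 ± 0.42 for Tlr2 to -4.11 ± 0.12 for Tlr5. Of the summed TPM of the 12 mouse receptor genes, 284 ± 14.2 TPM (SD, n = 3), the X-linked Tlr7, Tlr8 and Tlr13 held 67.6%, 70.7% and 71.0% in replicates 1, 2 and 3. The 4 surface receptor genes among the members held 14.6 ± 1.94% and Tlr4 held 10.7 ± 0.469% (SD, n = 3). Tlr11 and Tlr12, whose products bind protozoan profilin, were at or below 0.09 TPM in every library.

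The gene tables sum over annotated transcripts, and for several of these genes transcripts under 500 bases carried much of the level on few reads. Tlr6-202, a transcript of 446 bases annotated as protein-coding but with 340 coding bases, had 40.0, 75.6 and 65.6 counts, yet 3.06, 3.23 and 3.94 TPM. The full-length Tlr6-201, of 3677 bases, had 4.61, 4.44 and 4.96 TPM. The short transcript therefore made up 42.1 ± 2.19% of the TPM of Tlr6 (SD, n = 3) but 4.36% of its counts. The corresponding shares of TPM and of counts were 21.5% and 2.07% for Tlr8, 19.3% and 0.775% for Tlr7, and 18.3% and 1.01% for Tlr3. Smaller shares of TPM were found for Tlr1 (6.64%), Unc93b1 (4.67%) and Tlr13 (0.785%). Tlr2 and Tlr9 have 1 annotated transcript each, and the short transcript of Tlr5 had no counts. Among 4725 protein-coding genes at 1 TPM or more that have transcripts on both sides of 500 bases, the median share was 0.859% and the upper quartile 4.09%. The median over the 7 members in that set was 18.3%.

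**Figure D2:**
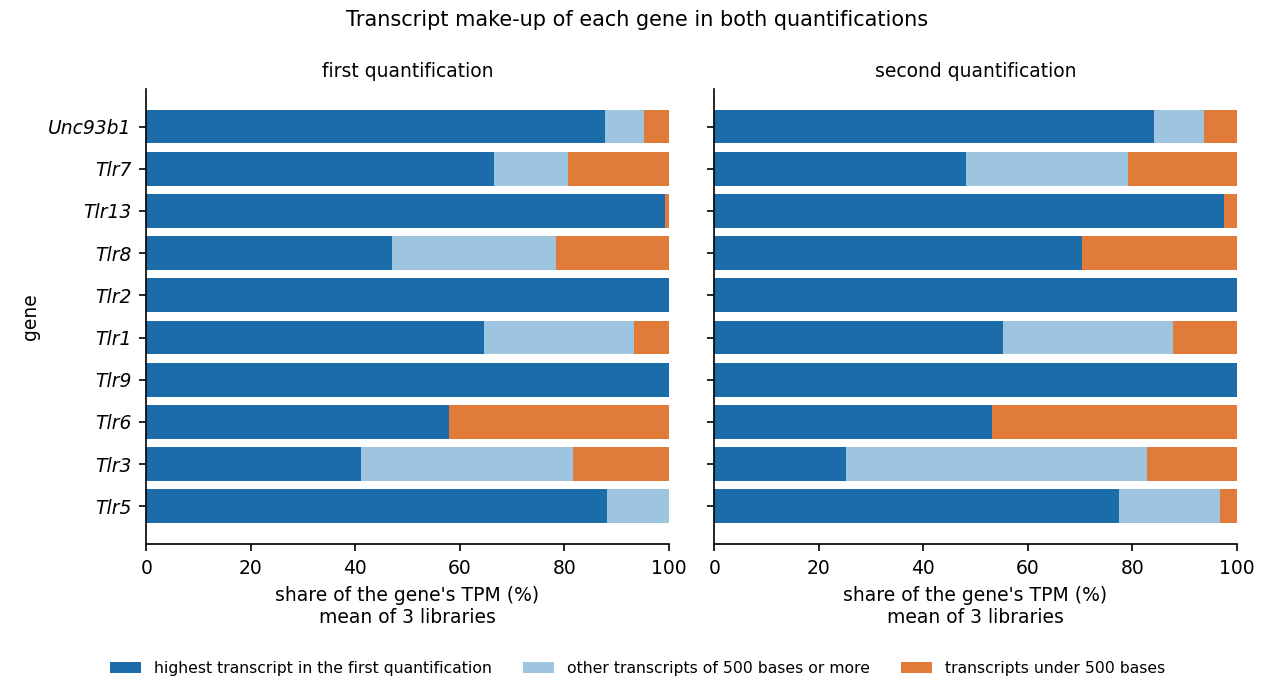
Share of each gene's TPM (percent, mean of 3 libraries) held by its highest transcript, by other transcripts of 500 bases or more, and by transcripts under 500 bases, in both deposited transcript quantifications. Short transcripts hold 42.1% of Tlr6 in the first, and the Tlr8 bar changes from 47.0% to 70.4% in its highest transcript between the 2 panels.

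Counting transcripts of 500 bases or more alone, an alternative chosen after the values were seen, Tlr13 averaged 65.3 ± 6.60 TPM, Tlr7 57.5 ± 2.01 TPM and Tlr8 47.9 ± 6.08 TPM (SD, n = 3). By library these were 58.78, 65.24 and 71.98 TPM for Tlr13, 59.79, 56.20 and 56.43 TPM for Tlr7, and 46.19, 42.83 and 54.63 TPM for Tlr8. Tlr13 then stood above Tlr8 in all 3 libraries without overlap, by 0.44 ± 0.13 on the log2 scale, whereas Tlr13 minus Tlr7 was 0.18 ± 0.19, of the opposite sign to the difference over all transcripts and positive in 2 of 3 libraries. In the second deposited quantification, over all transcripts, the mean of Tlr13 minus Tlr8 turned to -0.07. Tlr6 fell to 4.67 ± 0.265 TPM (SD, n = 3), the level of its full-length transcript, and Tlr9 then exceeded it by 0.89 ± 0.18 in place of 0.21 ± 0.22. The gap from Tlr6 to Tlr3 became 0.34 ± 0.07 in place of 0.79 ± 0.05. Of 9 neighbouring pairs, 8 were separated beyond their spread with this choice.

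**Figure D3:**
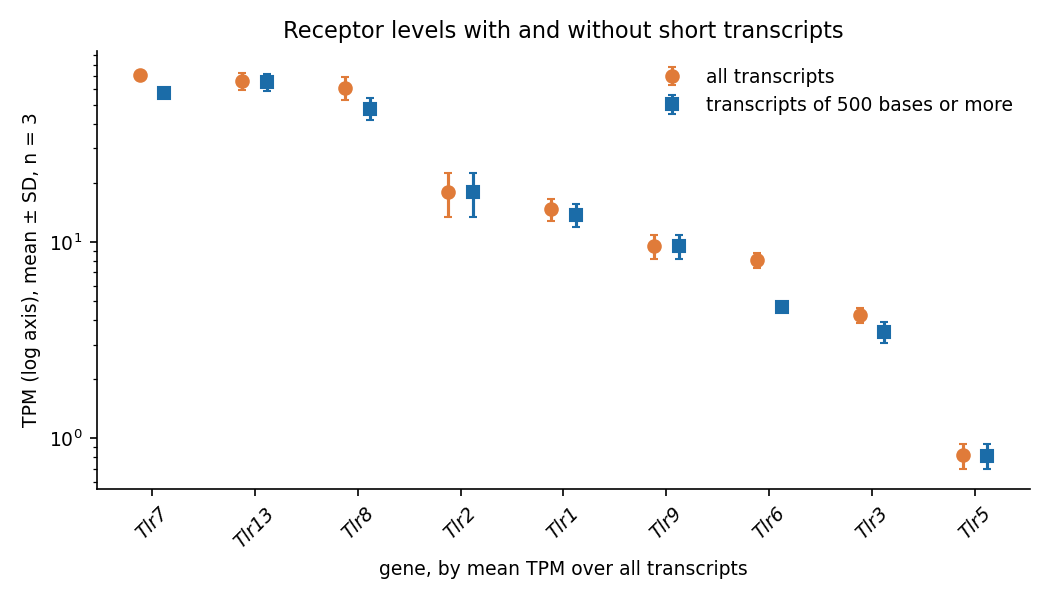
Mean TPM ± SD (log axis, n = 3) of the 9 receptor genes over all transcripts (circles) and over transcripts of 500 bases or more (squares). Tlr6 moves from 8.08 to 4.67 TPM, Tlr7 moves from above Tlr13 to below it, and Tlr2 and Tlr9, with 1 transcript each, do not move.

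The leading transcript held all of Tlr2 and Tlr9, 99.2% of Tlr13, 88.1% of Tlr5 and 87.9% of Unc93b1. It held 66.5% of Tlr7, 64.6% of Tlr1, 57.9% of Tlr6, 47.0% of Tlr8 and 41.1% of Tlr3. Unc93b1-203, the full coding transcript with 11 exons, measured 160.88, 143.10 and 160.55 TPM, and 3 transcripts annotated with a retained intron together held 8.40% of the gene. For Tlr7, Tlr8 and Tlr1 the long transcripts have coding parts of equal length. Tlr7-201, Tlr7-202 and Tlr7-203 each have 3150 coding bases, Tlr8-201 and Tlr8-202 each 3096, and Tlr1-201 and Tlr1-202 each 2385.

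The second deposited quantification divided several genes among their transcripts differently. Tlr8-201 had 16.86, 18.02 and 22.76 TPM in the first quantification and was listed at 0 in all 3 libraries of the second, where Tlr8-202 held 70.4 ± 3.23% of the gene. No base of Tlr8-201 lies outside the other long transcripts of the gene. Tlr7-202 held 10.4 ± 0.201% of Tlr7 in the first quantification and 25.8 ± 3.10% in the second. Tlr3 had another leading transcript: Tlr3-201 held 41.1 ± 4.76% in the first and 25.2 ± 6.18% in the second, and Tlr3-205 held 21.5 ± 6.31% and 41.8 ± 10.6% (SD, n = 3). At the level of genes, all 8 members at 5 TPM or more in either quantification had deposited TPM that differed at least 1.5 times between quantifications by the mean log2 ratio over libraries, though not in replicate 1 alone, where the ratios ran from -0.54 (Tlr2 and Tlr9) to -0.27 (Tlr8). The same mean criterion was met by 98.8% of 6176 genes. Protein-coding genes held 8.32% to 17.6% of TPM in the second set. After both were rescaled over protein-coding genes, none of the 10 members and 4.34% of those genes differed that much, and the members' mean log2 ratios of second to first ran from -0.06 for Tlr9 to 0.14 for Tlr8. The X-linked share of receptor TPM was 69.9 ± 1.66% in the second quantification and 69.8 ± 1.88% in the first (SD, n = 3).

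A chi-square test of the counts against library size, Benjamini-Hochberg adjusted over 13485 genes, asked whether the libraries differed beyond counting error. It called 9 of the 10 genes, all but Tlr6, against a background of 49.3% of genes called. The test detects smaller differences in genes with more counts, and the background was not matched on counts. The same limit applies to the shares given for the gene lists below. Tlr2 had normalised counts (CPM with TMM factors) of 122, 89.4 and 69.3 in replicates 1, 2 and 3 (chi-square test, Benjamini-Hochberg adjusted p = 1.01e-128). Replicate 1 was thus 1.77 times replicate 3. It was the 1 member whose highest library reached 1.5 times its lowest, against 19.6% of genes tested. Tlr9 had 68.1, 52.0 and 53.2 CPM (adjusted p = 2.68e-23 by the same chi-square test), and Tlr1 had 78.4, 60.1 and 64.1 CPM (adjusted p = 2.08e-23). In both, replicate 1 was about 1.3 times the lowest library and the other 2 lay close together. Tlr6 had 31.5, 30.8 and 31.5 CPM (chi-square adjusted p = 0.836), so its libraries were not distinguishable at this depth.

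**Figure D4:**
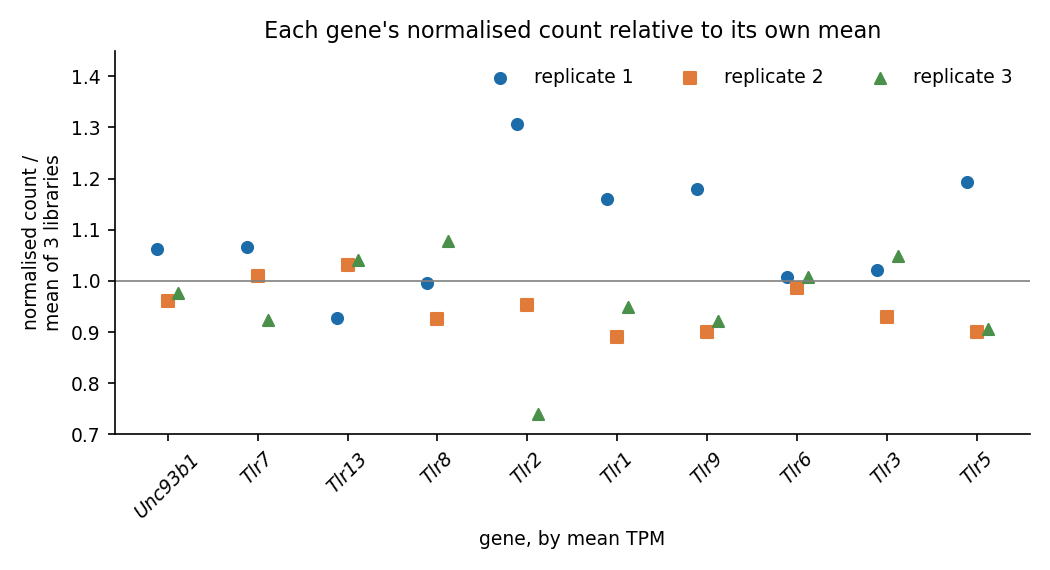
TMM-normalised count of each gene in replicates 1, 2 and 3 (symbols) divided by the mean of the 3 libraries. Tlr2 spreads widest, with replicate 1 at 1.77 times replicate 3, replicate 1 is the highest for 7 of the 10 genes, and the Tlr6 libraries lie together.

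On these normalised counts replicate 1 was the highest for 7 genes and replicate 3 for the other 3, Tlr3, Tlr8 and Tlr13. On deposited TPM the highest library of Unc93b1 and of Tlr6 was replicate 3 instead. Without replicate 1, 4 of the 10 genes were called, Tlr2, Tlr3, Tlr7 and Tlr8, against 27.5% of genes. The chi-square p, adjusted by Benjamini-Hochberg, was then 0.0561 for Tlr1, 0.627 for Tlr9, 0.608 for Tlr13, 0.173 for Unc93b1 and 0.987 for Tlr5. Tlr3 and Tlr5 differed 1.13 and 1.32 times between the highest and lowest library, with adjusted chi-square p of 0.0296 and 0.0235. The call of Tlr3, kept without replicate 1, was lost without replicate 2 (chi-square adjusted p = 0.735) and without replicate 3 (0.103). Over all 10 genes the median ratio of the highest to the lowest library was 1.16, beside 1.12 over the 9944 genes averaging at least 1 TPM. Differences in cell makeup were not tested as their source. The neutrophil markers were lowest in replicate 1, and the plasmacytoid and conventional dendritic cell markers were highest in replicate 2 while remaining under 1 TPM in sum.

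Genes of receptor maturation, ligand handling and signalling were read beside the receptors. All 5 folding and co-receptor genes reached 1 TPM in every library, with a median of 51.6 ± 5.49 TPM (SD, n = 3), and 3 of 5 differed between libraries by the chi-square test, beside 49.3% of all genes tested. Hsp90b1, whose product gp96 folds most Toll-like receptors with the help of the product of Cnpy3, measured 128.69, 137.87 and 175.30 TPM, and Cnpy3 measured 26.74, 25.41 and 28.08 TPM. Cd14, which encodes a co-receptor that hands ligands to several of these receptors, measured 54.02, 45.30 and 55.43 TPM. Cd36, a scavenger receptor that assists TLR2 and TLR6, measured 74.47, 114.45 and 234.25 TPM. It was highest in replicate 3, as were the other genes of this list on TPM.

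All 7 genes of trafficking and of the endolysosomal signalling platform reached 1 TPM in every library, with a median of 26.9 ± 1.74 TPM (SD, n = 3), and 6 of 7 differed between libraries, beside 49.3% of all genes tested. The highest were Sdcbp, which encodes a regulator of UNC93B1, at 327.69, 340.34 and 356.36 TPM, and the lysosomal transporter gene Slc15a3, at 101.87, 114.90 and 119.55 TPM. Slc15a4, whose product is needed for TLR7 and TLR9 signalling, measured 14.87, 15.25 and 14.89 TPM. Its partner adaptor TASL is encoded by 5430427O19Rik, the lowest of the list, at 3.55, 2.98 and 3.21 TPM.

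Of the 5 genes of proteases that cleave endosomal receptors, 4 reached 1 TPM in every library, all 5 differed between libraries (49.3% of all genes tested did), and the median was 600 ± 55.5 TPM (SD, n = 3). Ctsb averaged 2551 ± 182 TPM, Ctss 931 ± 51.0 TPM and Lgmn, the asparagine endopeptidase gene, 600 ± 55.5 TPM, whereas Ctsk had 0.86, 0.79 and 1.70 TPM. All 6 genes of nucleases and ligand handling reached 1 TPM in every library, with a median of 68.9 ± 5.76 TPM, and 4 of 6 differed between libraries, against that same 49.3%. Grn, whose product delivers CpG DNA to TLR9, averaged 762 ± 35.6 TPM, and Pld3, which encodes an endolysosomal exonuclease that limits TLR9 ligands, averaged 365 ± 18.2 TPM (SD, n = 3). The near-identical genes Rnaset2a and Rnaset2b, whose products cut RNA, averaged 24.0 ± 0.545 and 63.9 ± 4.44 TPM, and the division of reads between them is uncertain.

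Of 15 signalling genes, 14 reached 1 TPM in every library, 8 differed between libraries, a share near the 49.3% of all genes tested, and the median was 8.11 ± 0.415 TPM (SD, n = 3), below the median of 60.6 ± 7.23 TPM of the 5 endosomal receptors and near the 11.3 ± 0.993 TPM of the 4 surface receptors. Irf7 and Irf5, which encode transcription factors activated downstream of TLR7 and TLR9, measured 60.48, 56.79 and 52.36 TPM and 33.33, 32.08 and 35.83 TPM. Tollip averaged 19.8 ± 0.764 TPM. The lowest were Tirap, the adaptor gene that bridges MYD88 to TLR2 and TLR4, at 2.52, 2.77 and 2.81 TPM, and Sigirr, which encodes an inhibitory receptor, at 0.59, 0.44 and 0.65 TPM.

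**Figure D5:**
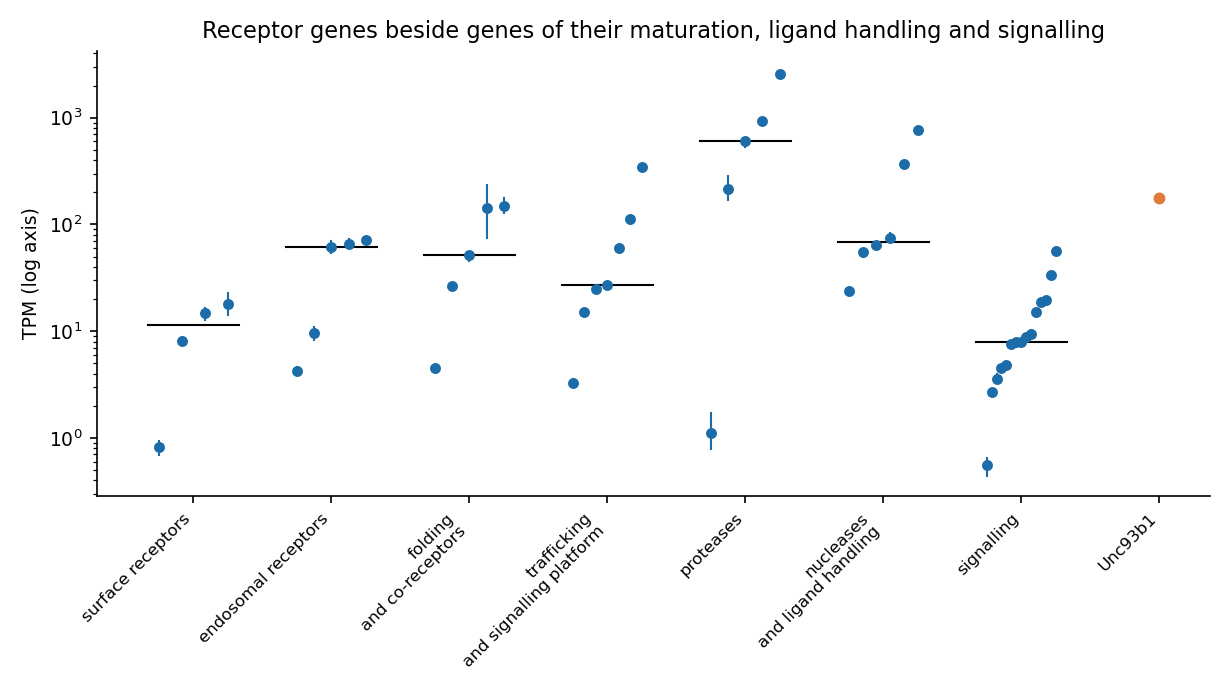
Mean TPM (log axis) of each gene in the lists of receptors and of their maturation, ligand handling and signalling genes, with lines from the lowest to the highest library, horizontal bars at the median of the gene means and Unc93b1 apart. Of the 7 lists plotted, the proteases have the highest bar (600 TPM) and the signalling genes the lowest (7.88 TPM). The text averages the medians of the libraries instead, which gives 8.11 TPM for the signalling genes.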

How the data were processed

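Each of the 3 libraries came with a gene table and 2 transcript tables. The authors deposited expected counts and TPM per gene and per transcript, made with assembly mm10 and annotation M21 per the text files beside the tables. The column layouts are those that RSEM and kallisto write, while the names and versions of the aligner and quantifiers, and the strandedness, were not given in the sources used here. For each transcript, the deposited percentage of its gene's TPM was not used, and shares were computed anew. All 55536 Ensembl genes matched the M21 annotation, and entries for spike-in controls, phiX and bare numbers entered no library size and no test, though they count in the TPM scale, on which short abundant RNAs weigh heavily. Deposited expected counts were rounded to whole numbers for the chi-square test, which used TMM factors (edgeR 4.0.16, R 4.3.3) and genes with at least 30 counts in sum, at an adjusted p of 0.05, since 1 group leaves no contrast for a quasi-likelihood test. Within-library differences used a pseudocount of 1. Ratios between quantifications used a pseudocount of 0.1. Python 3.11.15 was used with matplotlib 3.10.9, pandas 2.3.3, scipy 1.17.1 and numpy 2.4.6, and the chi-square test was tested on simulated data.

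The members and lists were chosen with earlier results of these data known. The rule for named genes took the 10 members, Tlr4 and the 3 protein-coding genes nearest to the highest member, and allowed the 3 highest and 2 lowest of each list, of which not all are named. Csf1r, Adgre1, Rnaset2b and Gm45542, named outside it, were chosen after their values were seen. Alternatives were TPM rescaled over protein-coding genes, the second quantification, posterior mean TPM, other pseudocounts and thresholds, DESeq2 1.42.0 size factors, no count filter, each library left out and, added after the values were seen, transcripts of 500 bases or more alone.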

Additional observations from a re-analysis of the deposited data

How the results depend on the processing

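Members reaching 1 TPM in every library numbered 9 or 10 over the alternatives, 8 reached 5 TPM, and Unc93b1, Tlr7, Tlr13 and Tlr8 lay above Tlr4 under each alternative run. The median member level, 16.3 TPM, was 66.0 TPM rescaled over protein-coding genes, 8.05 TPM in the second quantification, and 14.6 to 17.2 TPM with each library left out. Neighbours separated beyond their spread, 5 of 9, became 8 without transcripts under 500 bases and ranged from 5 to 8 with each library left out, the 8 being without replicate 3. The same sign in every library is easier to reach with fewer libraries. The counts with a library left out are thus not directly comparable with the 5 of 9. Members differing between libraries by the chi-square test, 9 (beside 49.3% of all genes), ranged from 4 (without replicate 1, beside 27.5%) to 8 with each library left out (40.9% without replicate 2, 34.4% without replicate 3), and numbered 7 with no count filter (31.8%), when Tlr3 and Tlr5 missed the threshold. The median share of the leading transcript, 76.6%, was 74.0% in the second quantification, 90.5% without transcripts under 500 bases, and 75.6% to 77.7% with each library left out. Members whose quantifications differed at least 1.5 times fell from 8 to 0 after rescaling, and the mean log2 ratio of second to first then turned positive for Tlr1 (0.0342), Tlr5 (0.10), Tlr6 (0.0412), Tlr8 (0.14) and Unc93b1 (0.0701). For these shifts, other than that from rescaling and fewer libraries, the cause was not tested. Counting error weighs most on Tlr5. After rescaling over protein-coding genes Tlr5 measured 3.84, 2.87 and 3.16 TPM in replicates 1, 2 and 3, so its place under 1 TPM depends on the scale. No paired analysis was possible because there was 1 group.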
